A study of Homo sapiens with 2 samples.

Results

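The BTB and SCAN zinc finger factors are nuclear proteins that bind DNA through C2H2 zinc fingers and carry a second domain, BTB or SCAN, through which they pair with one another. They were taken by symbol from a table of 25343 genes: the rule kept each numbered ZBTB, ZSCAN and ZKSCAN gene together with BCL6, BCL6B, BACH1 and BACH2. This gave 71 genes, 40 of them ZBTB, 20 ZSCAN, 7 ZKSCAN and 4 of the BCL6 and BACH genes. The BACH proteins bind DNA with a basic leucine zipper and not with zinc fingers, but share the BTB domain.

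Total RNA was compared between C4-2B ENZR cells, which resist enzalutamide and were grown with 20 µM of it, and C4-2B Con cells, which are sensitive to the drug and were grown with DMSO. Enzalutamide is an antiandrogen drug used against prostate cancer. Both are castration-resistant C4-2 sublines with LNCaP, a human prostate cancer line, as their ancestor. Both titles also carry the suffix shC, whose meaning is not stated in the labels. Each line gave 1 library, ENZR with 23479051 reads in genes and Con with 21024484 reads, so no value has a replicate, the spread between cultures is unknown and no p-value is given. In such bulk RNA, fewer cells that express a gene and less of its RNA per cell cannot be told apart.

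In the BTB family, the BTB domain forms dimers and recruits corepressor complexes such as NCOR and BCOR, and most of the well-studied members silence genes. SCAN domains form dimers but do not repress by themselves, and the ZKSCAN genes add a KRAB domain, which recruits the corepressor TRIM28. Several of these factors are known as switches of cell fate: ZBTB16 in germline stem cells, BCL6 in germinal centre B cells and ZBTB7B in CD4 T cells. ZBTB16 is also induced by androgens and glucocorticoids in hormone-sensitive cells.

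Promoter sequences of 3 members that lay past 2-fold are shown so that the upstream sequence of ZSCAN18, the member with the highest ratio, can be read beside those of ZBTB7A and ZBTB12, which were lower in ENZR. The windows are the 250 bases before a RefSeq transcript start on GRCh38.p14, all on the minus strand and written 5′ to 3′, with CG dinucleotides in capitals. ZSCAN18 has 2 starts in RefSeq, at chr19:58118405-58118654 with 27 CG and at chr19:58098232-58098481 with 25 CG. The window of the first of 2 ZBTB7A starts is chr19:4066900-4067149 with 22 CG, and the ZBTB12 window is chr6:31902087-31902336 with 21 CG.
ZSCAN18 start 1: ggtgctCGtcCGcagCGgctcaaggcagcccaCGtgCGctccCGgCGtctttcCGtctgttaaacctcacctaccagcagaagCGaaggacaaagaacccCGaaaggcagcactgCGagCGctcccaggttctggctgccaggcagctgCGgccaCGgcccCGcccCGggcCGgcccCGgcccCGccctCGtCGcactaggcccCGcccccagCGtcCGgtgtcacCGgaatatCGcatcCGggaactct
ZSCAN18 start 2: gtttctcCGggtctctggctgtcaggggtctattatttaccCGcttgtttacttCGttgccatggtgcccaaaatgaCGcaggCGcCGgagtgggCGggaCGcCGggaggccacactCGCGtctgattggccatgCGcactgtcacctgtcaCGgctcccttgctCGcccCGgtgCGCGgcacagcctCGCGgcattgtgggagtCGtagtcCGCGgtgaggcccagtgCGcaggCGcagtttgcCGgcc
ZBTB7A: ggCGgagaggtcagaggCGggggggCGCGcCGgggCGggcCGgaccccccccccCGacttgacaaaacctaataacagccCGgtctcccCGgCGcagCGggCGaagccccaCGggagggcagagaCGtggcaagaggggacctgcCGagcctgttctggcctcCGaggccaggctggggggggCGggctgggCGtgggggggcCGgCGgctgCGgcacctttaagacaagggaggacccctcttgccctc
ZBTB12: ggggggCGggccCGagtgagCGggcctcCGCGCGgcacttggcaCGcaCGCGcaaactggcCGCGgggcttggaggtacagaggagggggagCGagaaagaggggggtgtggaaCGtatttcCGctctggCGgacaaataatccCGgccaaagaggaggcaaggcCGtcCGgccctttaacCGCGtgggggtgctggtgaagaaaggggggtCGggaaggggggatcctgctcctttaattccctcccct
The 4 windows shown held more CG dinucleotides than the median window of the measured members. This did not hold for every window of the members past 2-fold. Those of ZSCAN12, which was lower, held 21, 15 and 17 CG, and those of ZBTB47, which was higher, held 3 and 32. No window was available for ZBTB16. Among 94 such windows of 53 measured members, the CG count had a median of 18 and a range of 0 to 55, against a median of 20 over 15553 windows of all measured genes.

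Levels are in CPM, meaning reads scaled to a library of 1000000 with the authors' TMM factors and with no correction for gene length. Genes averaging at least 1 CPM across the pair of libraries are called measured, which held for 13803 genes and for 62 of the 71 members. The log2 ratio is that of ENZR over Con after adding 1 CPM to each, and a gene is called at least 2-fold higher or lower by this log2 ratio, which understates the difference of low genes. Folds are plain CPM ratios, and the interval after a fold is the exact 95% Clopper-Pearson interval of the read counts, which covers counting error only.

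Most of these factors differed by less than 2-fold between the libraries. Of the 62 measured members, 2 passed 2-fold as higher in ENZR (3.23%, against 6.69% of all measured genes) and 4 as lower (6.45%, against 4.64% of all measured genes). The other 56 lay in between, and 11.3% of all measured genes passed 2-fold either way. A log2 ratio below 0 was found for 28 members, against 50.5% of all measured genes. The median log2 ratio was 0.01 over the members and -0.01 over all genes, and the median size of the log2 ratio regardless of direction was 0.24 over the members and 0.32 over all genes. For 59.7% of the members, and 71.2% of all measured genes, a ratio of 1 lay outside the counting interval. The interval lay above 1 for 18 members and below 1 for 19, against 34.6% and 36.6% of all measured genes.

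The split between higher and lower depended on the scaling. With the authors' TMM scaling undone, the all-gene median moved up by 0.11 in log2, the members at least 2-fold higher numbered 3 and those at least 2-fold lower 2, and 27 intervals lay above 1 and 12 below. In that setting the shares over all measured genes were 7.76% past 2-fold as higher and 3.80% as lower, and 44.2% had an interval above 1 and 28.7% below. ZBTB4 then passed 2-fold as higher, while ZBTB7A and ZSCAN12 no longer passed as lower. ZBTB16 and ZBTB12 stayed at least 2-fold lower and ZSCAN18 and ZBTB47 at least 2-fold higher under each of the 3 other scalings tried. With a pseudocount of 5 CPM, ZBTB47, ZBTB12 and ZSCAN12 were no longer past 2-fold, at log2 ratios of 0.95, -0.97 and -0.69, and ZSCAN18 did not pass a filter of 5 CPM or more.

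**Figure D1:**
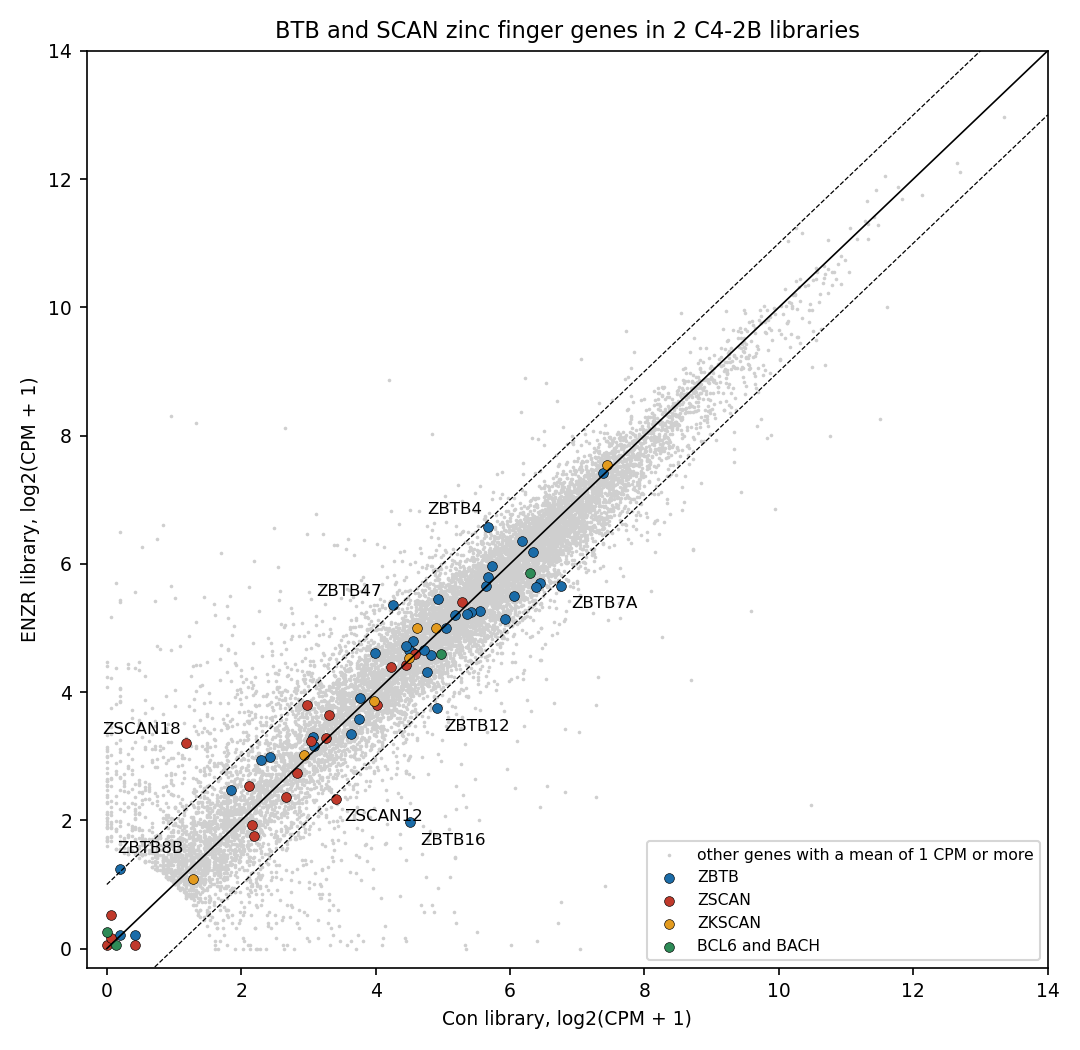
Level of each gene in the ENZR library (y axis) and the Con library (x axis), both as log2(CPM + 1), with the 71 members coloured by family and other measured genes in grey. The solid line marks equal levels and the dashed lines 2-fold; most members sit between the dashed lines, with ZSCAN18 above and ZBTB16 below at the greatest distance.

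Among the ZBTB genes, ZBTB16 stood apart from the rest. ZBTB16, also called PLZF, is a repressor that is fused to the retinoic acid receptor alpha in a form of acute promyelocytic leukaemia. ZBTB16 was at 2.91 CPM in ENZR (72 reads), against 21.8 CPM in Con (445 reads), 7.49-fold lower in ENZR (5.83 to 9.74). Its log2 ratio of -2.54 was the lowest of all members.

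The next lowest members of the ZBTB group were far closer to 2-fold. ZBTB12 was at 12.4 CPM in ENZR and 29.003 CPM in Con, 2.34-fold lower (2.03 to 2.69). ZBTB7A, also called LRF or Pokemon, which silences fetal globin genes in red cell precursors, was at 49.5 CPM in ENZR and 107 CPM in Con, 2.16-fold lower (2.02 to 2.32). It rested on 1223 reads in ENZR and 2185 in Con, and with the TMM scaling undone it was no longer past 2-fold.

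A further group of ZBTB genes was lower without reaching 2-fold. ZBTB10, a repressor that competes with SP factors for GC-rich sites, was at 49.1 CPM in ENZR and 82.4 CPM in Con, 1.68-fold lower (1.56 to 1.81). ZBTB1, which is needed for lymphocyte development, was at 34.4 CPM in ENZR and 59.8 CPM in Con, and ZBTB42 was at 51.1 CPM in ENZR and 86.3 CPM in Con. ZBTB1 and ZBTB42, named after their values were seen, were 1.74-fold (1.59 to 1.90) and 1.69-fold lower (1.57 to 1.82). ZBTB1 shares exon sequence with its neighbour ZBTB25 on the opposite strand, and ZBTB25 was at 8.90 CPM in ENZR and 7.35 CPM in Con, with an interval of the ratio of 0.979 to 1.50.

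On the higher side, ZBTB47 was the only ZBTB gene past 2-fold among those measured. It was at 39.8 CPM in ENZR and 18.2 CPM in Con, 2.19-fold higher (1.94 to 2.48). ZBTB4 came next at 94.7 CPM in ENZR and 50.0 CPM in Con, 1.89-fold higher (1.76 to 2.04). ZBTB46, a marker of classical dendritic cells, was at 6.67 CPM in ENZR and 3.92 CPM in Con, 1.70-fold higher (1.30 to 2.25) on 165 and 80 reads.

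The 3 ZBTB proteins known to bind methylated CG dinucleotides did not share a direction. ZBTB4 was higher, as above. ZBTB33, known as Kaiso, was slightly higher at 80.5 CPM in ENZR and 71.3 CPM in Con, a ratio of 1.13 (1.05 to 1.21). ZBTB38 was at 44.1 CPM in ENZR and 65.7 CPM in Con, 1.49-fold lower (1.37 to 1.62). The intervals of ZBTB4, ZBTB33 and ZBTB38 do not overlap one another.

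Other well-known ZBTB genes differed little. ZBTB17, or MIZ1, through which MYC represses cell cycle inhibitors, was at 26.9 CPM in ENZR and 22.5 CPM in Con, with an interval of the ratio of 1.06 to 1.35. ZBTB7B was at 170 CPM in ENZR and 166 CPM in Con, with an interval of the ratio of 0.976 to 1.07 that rests on 4194 and 3390 reads, the most of any ZBTB gene. ZBTB18, a repressor in cortical neuron development, was at 10.9 CPM in ENZR and 12.5 CPM in Con, with an interval of 0.731 to 1.04. ZBTB44 was at 71.5 CPM in ENZR and 80.4 CPM in Con, with an interval of the ratio of 0.831 to 0.952. Of the 37 measured ZBTB genes, 33 lay between the 2-fold limits and the median log2 ratio was 0.01.

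**Figure D2:**
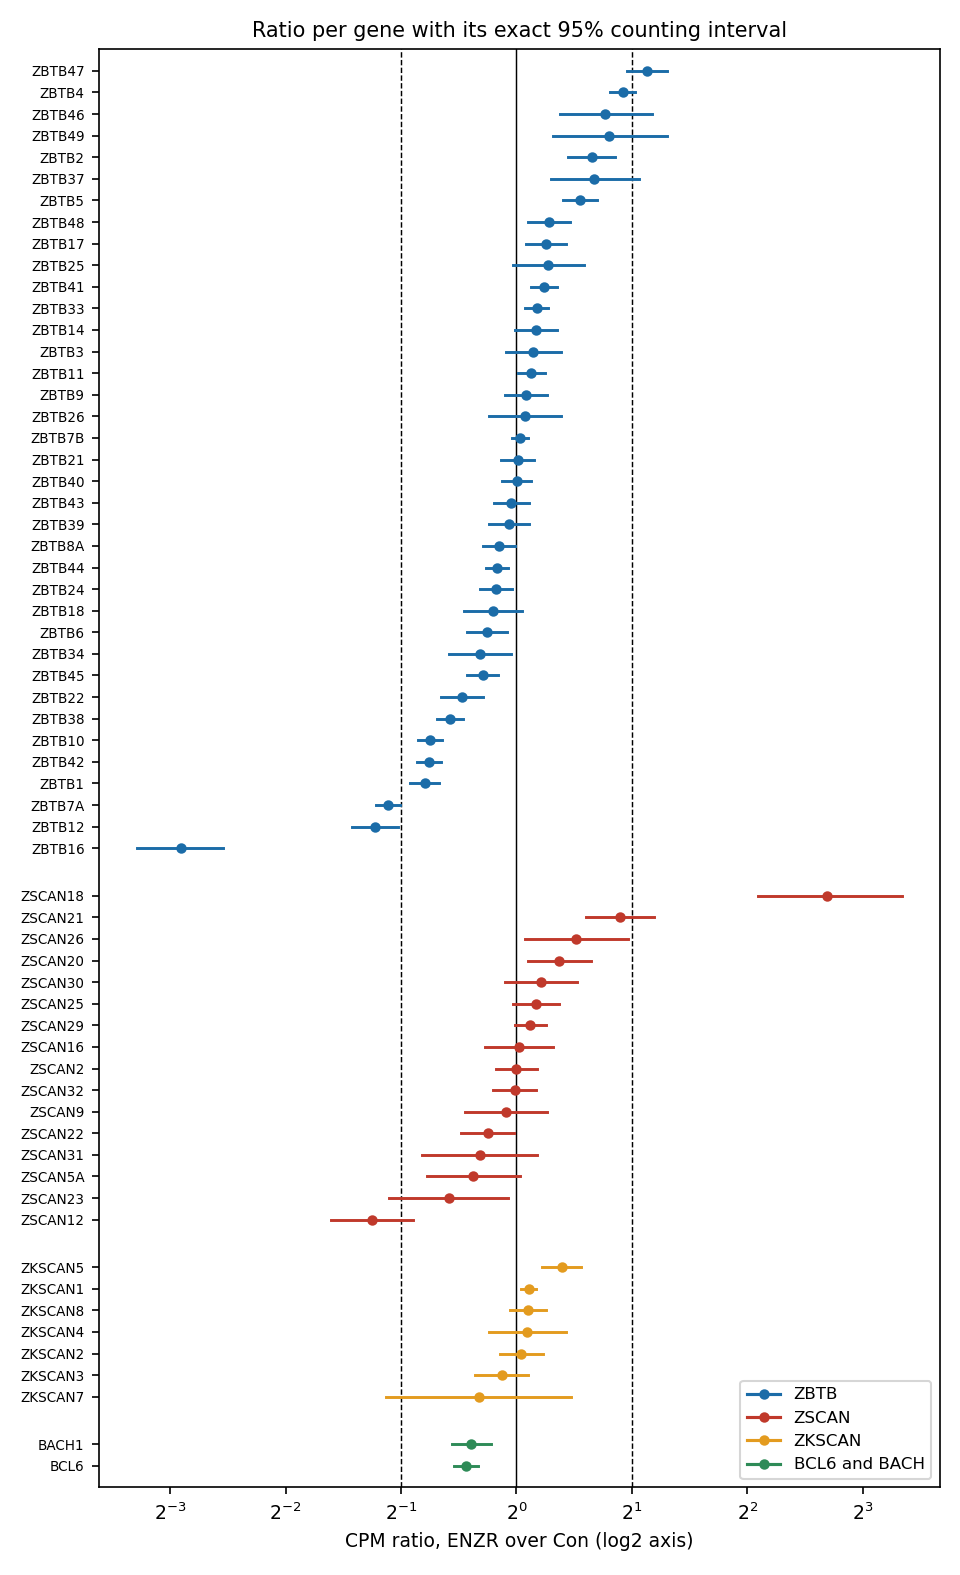
CPM ratio of ENZR over Con for the 62 measured members, grouped by family, on a log2 axis; bars are the exact 95% counting intervals, the solid line marks a ratio of 1 and the dashed lines 2-fold. ZBTB16 lies near 0.134 and ZSCAN18 near 6.44, and the ZKSCAN genes lie closest to 1.

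Among the ZSCAN genes the extreme was on the higher side. ZSCAN18, whose promoter is known to be methylated in several cancers, was at 8.21 CPM in ENZR (203 reads), against 1.27 CPM in Con (26 reads), 6.44-fold higher (4.27 to 10.1). Its log2 ratio of 2.02 ranked 255 from the top of 13803 genes. GENCODE 29 places exons of ZNF135 over ZSCAN18 on the opposite strand, and the use of strand is not given in the sources used here. ZNF135 itself was at 0.890 CPM in ENZR and 0.490 CPM in Con, 22 and 10 reads.

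ZSCAN21, an activator of the alpha-synuclein gene, was at 12.9 CPM in ENZR and 6.91 CPM in Con, 1.86-fold higher (1.52 to 2.29). It shares 880 exon bases with ZNF3 on the opposite strand in GENCODE 29, and ZNF3 was at 59.3 CPM in ENZR and 52.7 CPM in Con, so without strand reads of both cannot be told apart there. ZSCAN26 was at 4.77 CPM in ENZR and 3.33 CPM in Con, 1.43-fold higher (1.05 to 1.96). ZSCAN12 was lower, at 4.04 CPM in ENZR and 9.60 CPM in Con, 2.37-fold (1.86 to 3.05) on 100 and 196 reads. ZSCAN23 was at 2.39 CPM in ENZR and 3.58 CPM in Con, 1.50-fold lower (1.05 to 2.15), and ZSCAN5A was at 4.12 CPM in ENZR and 5.34 CPM in Con, with an interval of the ratio of 0.584 to 1.02.

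The ZSCAN genes with the most reads were nearly level. ZSCAN29 was at 41.4 CPM in ENZR and 38.1 CPM in Con, ZSCAN2 at 23.1 CPM in both, and ZSCAN32 at 20.5 CPM in ENZR and 20.8 CPM in Con. Each of these 3 intervals held a ratio of 1. Of the 16 measured ZSCAN genes, 9 had an interval that held 1, and of the 37 measured ZBTB genes 11 did. Of all 13803 measured genes, 3978 did. A gene with fewer reads has a wider interval, so these counts also depend on depth.

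The ZKSCAN genes had the narrowest range of the 3 numbered families, but are also the fewest, and a range tends to widen with more genes. The median size of the log2 ratio regardless of direction was 0.11 over the measured ZKSCAN genes. It was 0.25 over the 37 measured ZBTB genes and 0.24 over the 16 measured ZSCAN genes. All 7 were measured and none reached 2-fold. Their log2 ratios ran from -0.18 to 0.38, with a median of 0.08. ZKSCAN1, whose transcript is also the source of an abundant circular RNA, was at 186 CPM in ENZR and 173 CPM in Con, a ratio of 1.08 (1.03 to 1.12).

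ZKSCAN5 was the highest of the group at 30.9 CPM in ENZR and 23.6 CPM in Con, 1.31-fold higher (1.17 to 1.47). ZKSCAN8 was at 31.1 CPM in ENZR and 28.95 CPM in Con, and ZKSCAN2 at 22.1 CPM in ENZR and 21.5 CPM in Con. ZKSCAN3, a repressor of autophagy and lysosome genes, was at 13.5 CPM in ENZR and 14.7 CPM in Con, with an interval of the ratio of 0.781 to 1.07. ZKSCAN7, the lowest, rested on 28 reads in ENZR and 29 in Con, and its interval ran from 0.457 to 1.39.

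BCL6 and BACH1 were both lower by about the same ratio. BCL6, a repressor of B cell differentiation genes, was at 57.2 CPM in ENZR and 77.3 CPM in Con, 1.35-fold lower (1.26 to 1.45). BACH1, a heme-sensing repressor that pairs with small MAF proteins, was at 23.2 CPM in ENZR and 30.4 CPM in Con, 1.31-fold lower (1.17 to 1.47). Both stayed lower with the TMM scaling undone, where their median log2 ratio was -0.29 against -0.40.

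**Figure D3:**
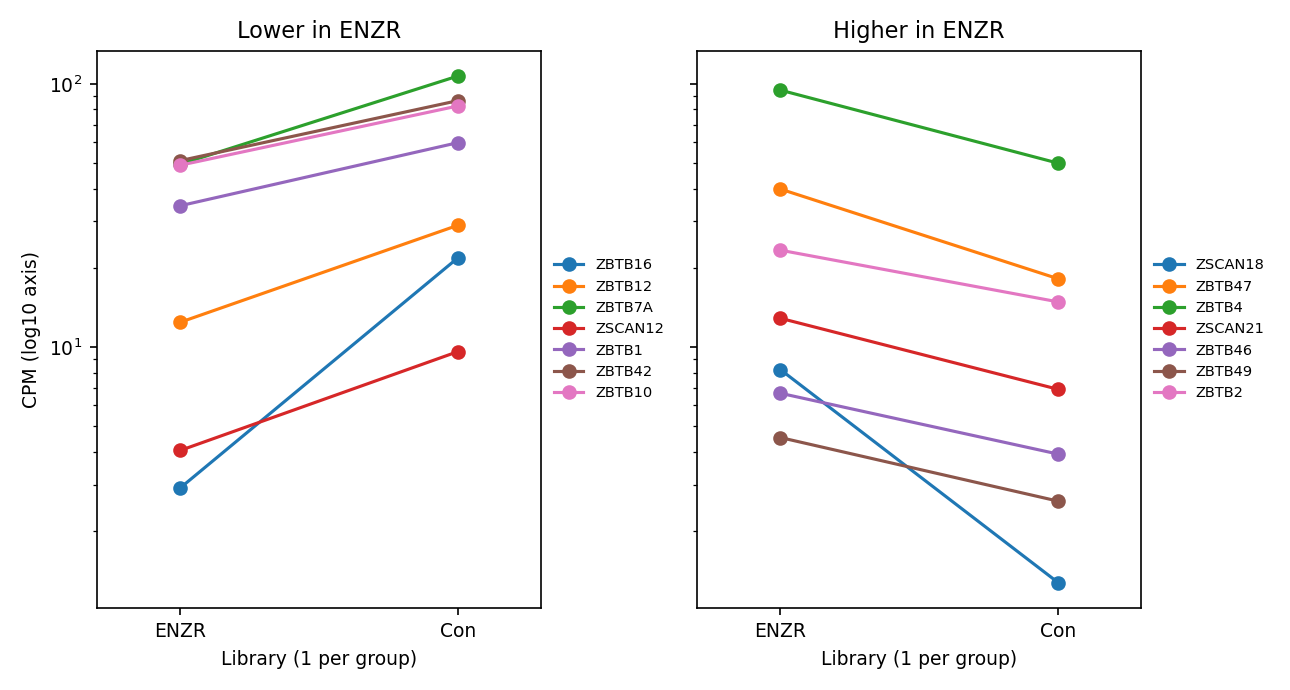
CPM in the ENZR and the Con library (log10 axis) for 7 members that were lower in ENZR (left) and 7 that were higher (right); each point is 1 library. ZBTB16 on the left, at 2.91 CPM in ENZR and 21.8 CPM in Con, and ZSCAN18 on the right, at 8.21 CPM in ENZR and 1.27 CPM in Con, have the steepest lines.

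The 9 members below the level filter averaged under 1 CPM, most of them with 11 reads or fewer in each library. BACH2, which keeps B and T cells from terminal differentiation, had 1 read in ENZR and 2 in Con. ZBTB20, a repressor of alpha-fetoprotein in liver, had 4 reads in ENZR and 3 in Con, and ZBTB32 had 4 in ENZR and 7 in Con. ZSCAN4, a gene of the early embryo, had 3 reads in ENZR and 1 in Con, and ZSCAN5B had 1 in ENZR and 7 in Con.

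BCL6B had 5 reads in ENZR and 0 in Con, and ZSCAN1 had 1 and 0. A count of 0 in Con allows up to 0.147 CPM (3 counts), and BCL6B was at 0.202 CPM in ENZR with a lower interval bound of 0.756 for the ratio, so no direction could be seen at this depth. ZSCAN10, a factor of embryonic stem cells, had 11 reads in ENZR and 1 in Con, a ratio of 9.08 with an interval of 1.32 to 391.

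ZBTB8B had 34 reads in ENZR and 3 in Con, a ratio of 9.35 (2.94 to 47.6). ZBTB8A was at 36.2 CPM in ENZR and 40.2 CPM in Con. Both ZBTB8A and ZBTB8B share exon sequence with the gene AL033529.1 on the same strand in GENCODE 29. That gene has no value under this symbol in these data, so how reads of the shared sequence were assigned is not known. The split of reads between the paralogs ZSCAN5A and ZSCAN5B is uncertain. ZBTB7C, a relative of ZBTB7A whose symbol ends in a letter that the rule does not take, had 14 reads in ENZR and 64 in Con, a ratio of 0.181 (0.0935 to 0.325).

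Leukocyte markers were examined because several members are best known from lymphocytes. CD3E and MS4A1 had 0 reads in both libraries, which allows up to 0.121 CPM in ENZR and 0.147 CPM in Con. PTPRC, the pan-leukocyte phosphatase CD45, had 5 reads in ENZR and 6 in Con. The leukocyte list summed to 15.2 CPM in ENZR and 19.4 CPM in Con, nearly all of it from CD68 and LYZ. Among markers of prostate lines, HOXB13 was at 337 CPM in ENZR and 442 CPM in Con and FOXA1 at 428 CPM in ENZR and 444 CPM in Con, while KLK3, which encodes PSA, was at 3.72 CPM in ENZR and 1428 CPM in Con. The 8 stromal markers, 4 of them measured, summed over all 8 to 52.0 CPM in ENZR and 31.3 CPM in Con, most of it from COL1A1, and COL1A2 had 0 reads in both. The part of these markers in the members' values was not tested.

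RefSeq gene order was used to ask whether the members past 2-fold differed together with the genes beside them. For ZSCAN18, on chromosome 19 among other zinc finger genes, the 10 nearest measured genes had log2 ratios from -0.52 to 0.07, so none of them passed 2-fold. Their median was -0.14. ZBTB16, on chromosome 11, had neighbours with a median of -0.05 and a range of -0.96 to 1.78; the highest of them was NCAM1, at 2.95 CPM in ENZR and 0.147 CPM in Con. The neighbours of ZBTB47, on chromosome 3, had a median of 0.16, with FAM198A past 2-fold as higher, at 7.04 CPM in ENZR and 1.81 CPM in Con. Those of ZSCAN12, on chromosome 6, had a median of -0.07, with PGBD1 past 2-fold as higher, at 2.43 CPM in ENZR and 0.245 CPM in Con.

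ZBTB7A and ZBTB12 had the lowest neighbour medians of the members past 2-fold. A member short of 2-fold could lie among lower genes: the neighbours of ZBTB45 had a median of -0.69, against -0.29 for ZBTB45. The neighbours of ZBTB7A, also on chromosome 19, had a median log2 ratio of -0.43 against -1.10 for ZBTB7A, and all genes of chromosome 19 had a median of -0.22. The neighbour of ZBTB7A past 2-fold was FSD1, in the opposite direction, at 1.94 CPM in ENZR and 0.0980 CPM in Con. The neighbours of ZBTB12, on chromosome 6, had a median of -0.40 against -1.16, and among them SLC44A4 was past 2-fold, at 58.8 CPM in ENZR and 142 CPM in Con.

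Chromosome 6 holds 9 of the SCAN members, ZSCAN9, ZSCAN12, ZSCAN16, ZSCAN23, ZSCAN26 and ZSCAN31 with ZKSCAN3, ZKSCAN4 and ZKSCAN8. Their median log2 ratio was -0.08, against -0.10 for all genes of chromosome 6, with 4 above 0 and 5 below, and ZSCAN12 was the only one past 2-fold. The 14 measured SCAN members on other chromosomes had a median of 0.11, with 10 above 0 and 4 below. On chromosome 7, ZKSCAN1, ZKSCAN5, ZSCAN21 and ZSCAN25 were all above 0, with a median of 0.27 against 0.07 for all genes of that chromosome. The interval of the ratio of ZSCAN25 held 1 (0.979 to 1.29). Chromosome 7 was picked after its values were seen, and other chromosomes went the other way. On chromosome 14, for example, the 3 measured members had a median of -0.75 against 0.03 for all genes there.

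**Figure D4:**
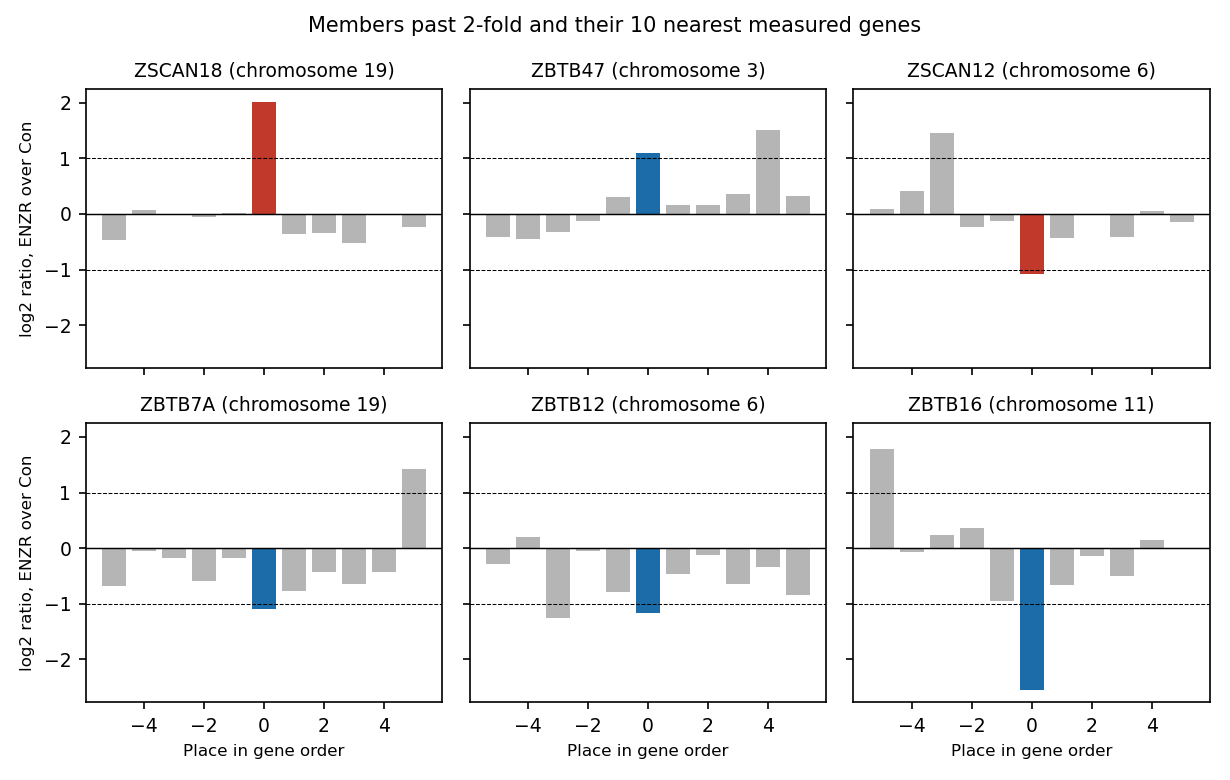
Log2 ratio of ENZR over Con (y axis, pseudocount 1 CPM) for the 6 members past 2-fold, in colour at place 0, and for the 5 measured genes on each side in RefSeq gene order, in grey; dashed lines mark 2-fold. ZSCAN18 stands alone at 2.02, while most neighbours of ZBTB7A and ZBTB12 lie below 0 with them.

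The promoter windows were searched on both strands for the DNA elements of hormone signalling and of some of the factors. The full androgen and glucocorticoid response element, AGAACA followed by 3 free bases and TGTTCT, was found in 0 of 94 member windows and 0 of 15553 windows of all measured genes. With no match in any window, this search could not set members apart from other genes. No window was available for ZBTB16, so its promoter was not searched for any element. Its half-site AGAACA was found in 7.45% of member windows and 8.25% of all windows, among the members in ZBTB7A, ZBTB9, ZBTB38 and ZBTB48. The BCL6 element TTCCNNGAA was found in 8 of 94 member windows (8.51%) and 569 of 15553 windows of all measured genes (3.66%). The member windows belonged to BCL6 itself, ZBTB14, ZKSCAN5, ZSCAN20, ZSCAN23, ZSCAN31 and ZSCAN5A. A gene with several starts gives several windows, and the difference in share was not tested. The MAF recognition element, TGCTG followed by AGTCA, was found in 0 of 94 member windows and 0.0836% of all windows, and the Kaiso element, TCTCG followed by CGAGA, in 0 of 94 member windows and 0.656% of all windows. A match describes the letters of the window and does not show binding.

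Relatives outside the rule were examined for comparison. Of 6 BTB zinc finger genes with other symbols, 5 were measured and none passed 2-fold, with a median log2 ratio of 0.42. PATZ1, a factor of that group, was at 103 CPM in ENZR and 73.1 CPM in Con. Of 23 SCAN genes with other symbols, all measured, 1 was at least 2-fold lower (4.35%, against 4.64% of all measured genes) and none higher. Their median log2 ratio was 0.12. The lower one was PEG3, an imprinted gene, at 12.01 CPM in ENZR and 59.0 CPM in Con, 4.91-fold lower (4.32 to 5.60).

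The corepressors through which BTB proteins act were mostly level or slightly higher. Of 19 measured genes, 1 was at least 2-fold higher (5.26%, against 6.69% of all measured genes) and none lower. Their median log2 ratio was 0.15. BCORL1, a relative of the BCL6 corepressor, was at 30.7 CPM in ENZR and 13.7 CPM in Con, 2.25-fold higher (1.96 to 2.59). BCOR, the BCL6 corepressor, was 1.52-fold higher (1.45 to 1.61), while NCOR1 was at 127 CPM in ENZR and 177 CPM in Con. CUL3, the ubiquitin ligase scaffold that binds BTB proteins, had an interval of 0.931 to 1.04.

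Of the 6 KRAB corepressors none passed 2-fold, and TRIM28 was at 530 CPM in ENZR and 661 CPM in Con. Among 7 measured small MAF and CNC factors, the partners and rivals of BACH proteins, none passed 2-fold either, and the median log2 ratio was 0.23. MAFF, named after its values were seen, had the highest log2 ratio at 0.93, with 3.88 CPM in ENZR and 1.57 CPM in Con, a plain ratio of 2.48 (1.64 to 3.82) on 96 and 32 reads. NFE2L2, the activator that BACH1 opposes, was at 85.6 CPM in ENZR and 82.8 CPM in Con.

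Genes reported as targets of these factors did not share a direction. Of 12 BACH1 targets, 7 were above 0 and 5 below, while 50.5% of all measured genes were below 0. HMOX1, heme oxygenase and the best-known of them, was at 19.3 CPM in ENZR and 10.6 CPM in Con, a ratio of 1.81 (1.54 to 2.14), and FTH1, ferritin heavy chain, was at 2274 CPM in ENZR and 1298 CPM in Con. The 2 targets past 2-fold were lower (16.7% of the 12, against 4.64% of all measured genes). SLC7A11, the cystine transporter, was at 86.7 CPM in ENZR and 245 CPM in Con. ME1, malic enzyme, was at 57.5 CPM in ENZR and 140 CPM in Con.

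Of 13 measured BCL6 targets, 2 were at least 2-fold higher (15.4%, against 6.69% of all measured genes). At least 2-fold lower was 1 target (7.69%, against 4.64% of all measured genes). With so few genes, these shares rest on 1 or 2 genes each. ID2, an inhibitor of helix-loop-helix factors, was at 28.3 CPM in ENZR and 6.66 CPM in Con, 4.25-fold higher (3.54 to 5.15). CCND2, a D-type cyclin, had 226 reads in ENZR and 1 in Con, a ratio of 187 (33.1 to 7400). SOCS2, a suppressor of cytokine signalling, was at 0.809 CPM in ENZR and 8.18 CPM in Con, 10.1-fold lower (6.34 to 17.0). Among 9 genes of autophagy and lysosomes listed for ZKSCAN3, none passed 2-fold, and the median log2 ratio was -0.14. Of these 9, 6 were below 0 and 3 above, while 50.5% of all measured genes were below 0. GABARAPL2 was the lowest, at 45.8 CPM in ENZR and 65.01 CPM in Con, and WIPI2 the highest, at 66.4 CPM in ENZR and 44.4 CPM in Con.

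As ZBTB16 is itself hormone-induced in other systems, it was set beside other genes that androgens or glucocorticoids induce. FKBP5, a chaperone partner, was at least 2-fold lower, at 82.7 CPM in ENZR and 215 CPM in Con. PER1, a clock gene, was at least 2-fold higher, at 43.9 CPM in ENZR and 21.4 CPM in Con. KLF9 was at 45.7 CPM in ENZR and 67.2 CPM in Con, and TSC22D3 at 35.2 CPM in ENZR and 47.2 CPM in Con. SGK1 and CRISPLD2 were higher on few reads, with ratios of 2.89 (1.78 to 4.87) and 2.41 (1.26 to 4.94). DUSP1 was nearly level, with an interval of the ratio of 0.814 to 1.16. Of the 9 measured genes of this list, which also holds hormone receptors, 4 were above 0 and 5 below. Their median log2 ratio was -0.04, so the list did not share a direction with ZBTB16. The glucocorticoid receptor NR3C1 had 7 reads in ENZR and 1 in Con. Among 7 measured partners and targets of ZBTB17 and ZBTB33 none passed 2-fold, and MYC was at 248 CPM in both libraries. Of these 7, 3 had an interval above 1, 0 below, and 4 an interval that held 1. Over all measured genes, 34.6% had an interval above 1 and 36.6% below. CDKN2B, a cell cycle inhibitor, had 53 reads in ENZR and 14 in Con. Its log2 ratio was 0.90 and its plain ratio 3.12 (1.71 to 6.0985). With a pseudocount of 0.25 CPM, 1 gene of this list passed 2-fold as higher, as did 7.95% of all measured genes. CDKN1A, another such inhibitor, was at 92.7 CPM in ENZR and 62.3 CPM in Con. The part of ZBTB17 in these values was not tested.

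**Figure D5:**
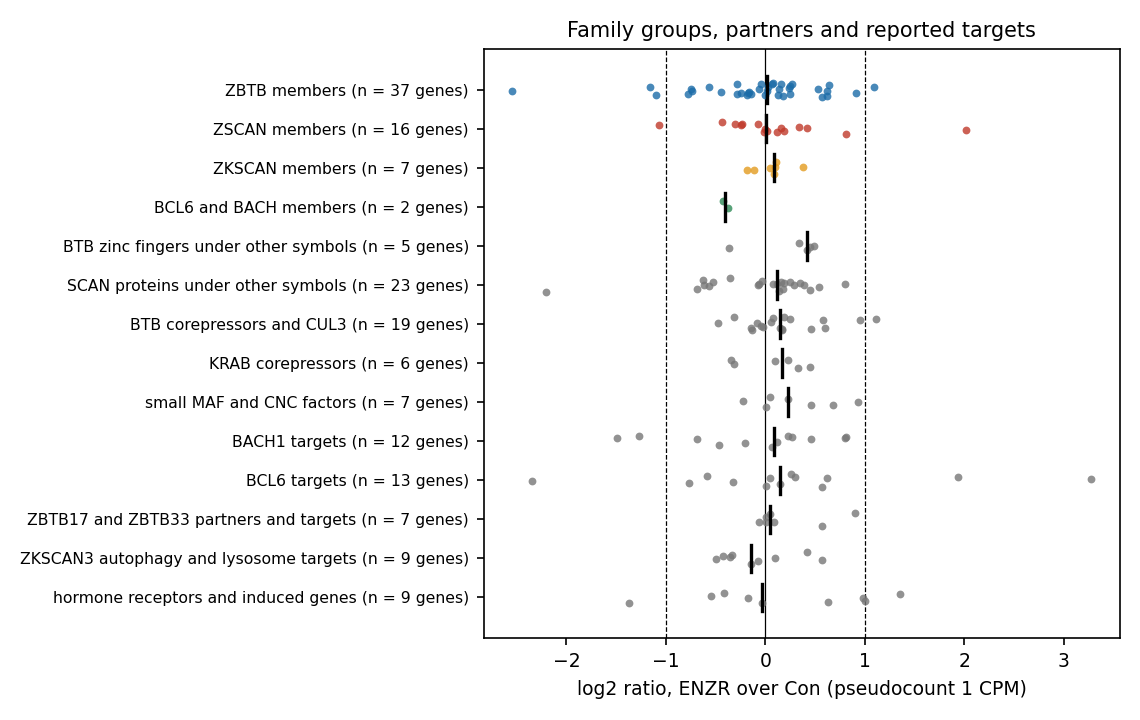
Log2 ratio of ENZR over Con (x axis, pseudocount 1 CPM) of each measured gene in the 4 family groups (coloured) and in the lists of relatives, partners and reported targets (grey); the vertical bar is the median of a row and dashed lines mark 2-fold. The ZKSCAN genes lie between -0.18 and 0.38, while BCL6 targets spread from -2.34 to 3.27.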

How the data were processed

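The deposited table gave 1 signal value per gene and library, made by the authors: TMM-scaled CPM, per the table's title. Bowtie2 2.1.0, RSEM 1.2.15, edgeR and the build hg19 appear in the submitters' processing notes without roles. The sources used here do not give the annotation or the use of strand. All values were whole multiples of 1 step per column (100% within 0.01 reads), worth 0.0404 CPM in ENZR and 0.0490 CPM in Con, so whole reads were recovered; they may be rounded estimates. A count test needs residual degrees of freedom, which 1 library per group does not leave, and none was run. Log2 ratios used a pseudocount of 1 CPM and a mean of 1 CPM or more. No other sample columns were present (0).

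Members and lists were chosen with earlier results of these data known. Named genes are members past 2-fold, 18 fixed members, the 3 highest, the 3 lowest and the 3 with most reads per family, members at 0 reads in 1 library, and up to 3 list genes past 2-fold each way; other genes described were picked after their values were seen. Symbols were matched to RefSeq (GRCh38.p14) for chromosomes and gene order, and promoter windows were found for 53 of the 62 measured members. Overlaps came from GENCODE 29. The calculation was tested on simulated reads that held counting error only, so the test says nothing of the spread between cultures. Python 3.11.15, scipy 1.17.1 and pandas 2.3.3 were used. Alternatives varied pseudocount, filter and scaling. Some listed genes are not reported here.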

Additional observations from a re-analysis of the deposited data

How the results depend on the processing

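Of the members, 2 were at least 2-fold higher and 4 lower in the reported setting. With a pseudocount of 5 CPM these counts were 1 and 2, and with a mean of 5 CPM or more 1 member was higher. With the TMM scaling undone, or with the 10 most abundant genes left out of the library total, 2 members were lower, and the members' median log2 ratio was 0.12 in both settings (0.1243 and 0.123), while that of all genes was 0.10. Members with a log2 ratio of the other sign numbered 4 in both settings, ZBTB39, ZBTB43, ZSCAN9 and ZSCAN32. Over the partner and target lists together, 5 genes were at least 2-fold higher as reported, 3 with a pseudocount of 5 CPM, 10 with 0.25 CPM, and 8 with the TMM scaling undone or the 10 most abundant genes left out. Over all genes, a pseudocount of 5 CPM gave 447 higher and 371 lower, against 923 and 641, and a mean of 5 CPM or more gave 577 higher. Of 30 named measured members, 4 moved from their reported log2 ratio by more than a set limit with a pseudocount of 5 CPM. With the TMM scaling undone, 9 did. This limit was not the interval printed after a fold: with a pseudocount of 5 CPM, ZBTB47 and ZSCAN21 fell outside that interval without being counted. No named member whose interval excluded 1 had a log2 ratio of the other sign under any of the 7 alternatives. No paired analysis was possible because each group has 1 library. Depth limits members under about 30 reads, such as ZSCAN10, BCL6B and ZKSCAN7, for which even a large ratio has a wide interval.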
